A study of Mus musculus with 12 samples.

Results

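Matrix metalloproteinases (MMPs), the enzymes that cut collagen, elastin and other matrix proteins, and the tissue inhibitors (TIMPs) that block them were followed in the mouse aorta at the RNA level. The genes were Mmp2, Mmp3, Mmp8, Mmp9, Mmp12, Mmp13, Mmp14, Timp1, Timp2 and Timp3. They were chosen by name, and every array probe that carried one of these names was taken. This gave 12 of the 55681 non-control probes, covering all 10 genes, out of 34797 gene names on the array. Of these, 7 probes of 6 genes (Timp1, Timp2, Timp3, Mmp14, Mmp3 and Mmp2) were bright enough to be tested, against 27801 tested probes on the whole array. All 7 were well above background on all 12 arrays. The other 4 genes, Mmp8, Mmp9, Mmp12 and Mmp13, were not well above background on all 3 arrays of any group, so that only limits can be given for them.

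RNA came from male C57BL/6J mice aged 11 to 14 weeks, 3 per group, collected on day 3. By the series record all 4 groups received a daily intraperitoneal injection of dimethylsulfoxide (DMSO) or of rapamycin dissolved in it. The DMSO group received the vehicle only, and the rapamycin group received the mTOR inhibitor at 2 mg/kg/day. In the BA+DMSO group the vehicle was combined with the challenge, an infusion of β-aminopropionitrile (BAPN, 150 mg/kg/day) with angiotensin II (AngII, 1 µg/kg/min) from osmotic minipumps. The BA+rapamycin group received the challenge with rapamycin. BAPN blocks the enzymes that crosslink collagen and elastin, AngII is a vasoconstrictor peptide, and together they lead to aortic dissection. The DMSO samples carry Pre in their titles, a word the study also uses for mice sampled ahead of the challenge, so whether these mice had 3 days of vehicle or none is not settled by the sources. The tissue was a 10 mm piece of whole aorta above the right renal artery, so a gene's RNA per piece reflects both how many cells of each type it held and how much RNA each cell made, which cannot be told apart in bulk samples.

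MMPs are made as inactive proenzymes that are opened by other proteases. The collagenases Mmp8 and Mmp13 cut fibrillar collagen, the gelatinases Mmp2 and Mmp9 cut denatured collagen and basement membrane, the stromelysin Mmp3 cuts many matrix proteins and opens other proenzymes, and Mmp12 is the elastase of macrophages. Mmp14 is anchored in the cell membrane and activates pro-Mmp2 there, with Timp2 as its adaptor. Timp1 is the inducible inhibitor, Timp2 is made in a steady way by many cells, and Timp3 binds to the matrix. In the aorta, degradation of elastic fibres by these enzymes accompanies aneurysm and dissection.

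Values are log2 processed intensities minus the 75th percentile of the same array, and a difference is between the means of groups of 3 arrays with its standard error (SE). Because probes differ in how strongly they bind, levels are compared between arrays for the same probe and never between genes. Calls were made where limma's moderated test, with Benjamini-Hochberg adjustment over all tested probes, gave an adjusted p below 0.05. The challenged arrays were dimmer, with a 75th percentile of 74.6 to 109 intensity units in BA+rapamycin and 78.1 to 246 in BA+DMSO, against 221 to 280 in DMSO and 257 to 337 in rapamycin. The BA+DMSO arrays were the least alike. Across tested probes replicates 1 and 2 correlated at 0.953, 1 and 3 at 0.961 and 2 and 3 at 0.912, whereas pairs within the DMSO, rapamycin and BA+rapamycin groups correlated at 0.974 or more. Leaving out BA+DMSO replicate 1, 2 or 3 gave 0.806%, 39.9% or 0.122% of all tested probes called between BA+rapamycin and BA+DMSO, so values without replicate 2 are given where it decides them. Between BA+DMSO and DMSO the same omissions gave 11.2%, 27.2% and 38%, beside 20.5% with all arrays, so there replicate 3 moved the share most. All DMSO arrays and rapamycin replicate 1 lay on one slide, and rapamycin replicates 2 and 3 lay with all challenged arrays on the other. The challenge in vehicle-treated mice therefore cannot be told apart from the slide except through the rapamycin arrays. Titles of 10 of the 12 samples carry a date whose meaning is not given, and 3 dates are shared between groups. Arrays of a date deviated together, with a consensus correlation of 0.50 over all tested probes.

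The question of the first comparison was which protease and inhibitor genes responded to 3 days of BAPN and AngII. Of the 6 tested genes, 4 were higher in BA+DMSO than in DMSO and none was lower: Timp1, Mmp14, Mmp3 and Mmp2. The median difference of the 6 genes was 1.06, beside -0.04 over all tested probes. Across the array, 20.5% of tested probes were called in this comparison, 9.65% in the upward direction. The plot of levels on each array shows Timp1 and Mmp14 in separate bands with and without the challenge.

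**Figure D1:**
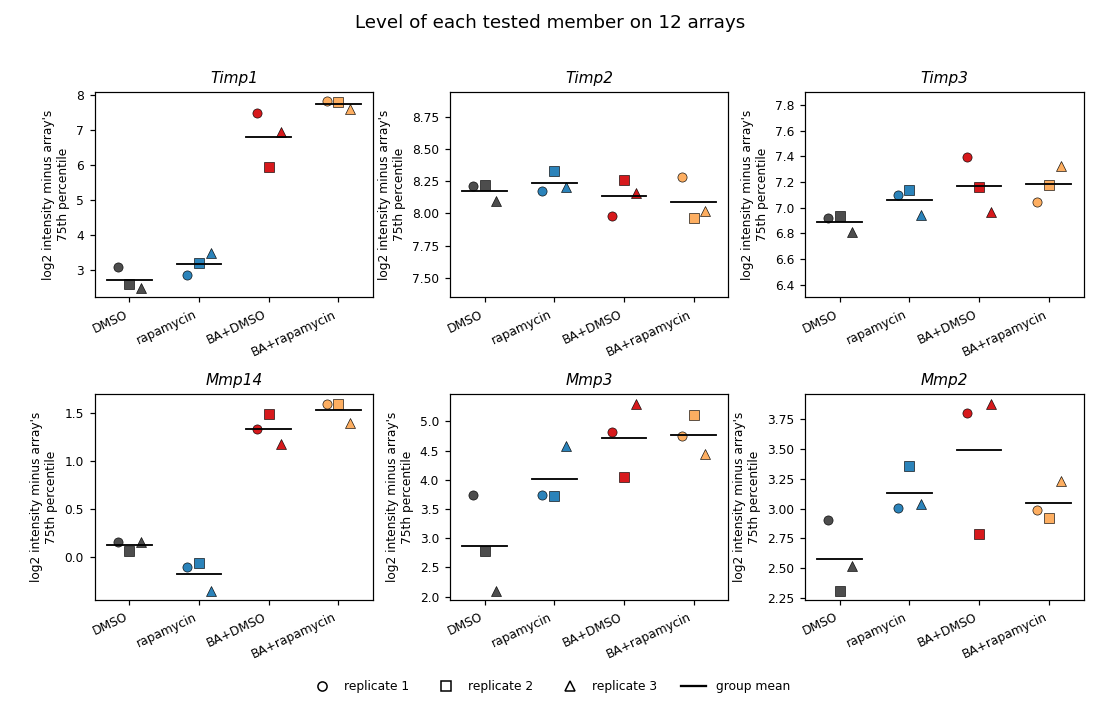
Levels of the 6 tested genes on each of the 12 arrays, as log2 intensity minus the array's 75th percentile, with a vertical scale of its own in each panel. Symbols give the replicate and bars the group mean (n = 3). Every challenged array lay above every unchallenged array for Timp1 and Mmp14, while Timp2 spanned only 7.96 to 8.33 over all arrays.

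Timp1, the inhibitor that many cells induce during inflammation and repair, showed the largest difference of the tested genes. It stood at 3.11, 2.61 and 2.50 on the DMSO arrays and at 2.88, 3.20 and 3.49 on the rapamycin arrays. It stood at 7.47, 5.95 and 6.94 on the BA+DMSO arrays and at 7.82, 7.79 and 7.60 on the BA+rapamycin arrays. The lowest challenged array, BA+DMSO replicate 2, was still far above the highest unchallenged array. Timp1 rose by 4.05 ± 0.34 (SE) in the challenge, a 16.6-fold increase (adjusted p = 0.000117, limma). Without BA+DMSO replicate 2 the difference was 4.47 ± 0.25 (adjusted p = 1.04e-05).

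Mmp14, the membrane-bound activator of pro-Mmp2, stood at 0.15, 0.06 and 0.16 on the DMSO arrays and at -0.10, -0.07 and -0.35 on the rapamycin arrays. It stood at 1.34, 1.49 and 1.18 on the BA+DMSO arrays and at 1.59, 1.59 and 1.39 on the BA+rapamycin arrays. The groups with and without the challenge did not overlap, and arrays within a group lay close together. Mmp14 rose 2.31-fold in the challenge, by 1.21 ± 0.16 on the log2 scale (adjusted p = 0.000831, limma), and by 1.13 ± 0.14 without BA+DMSO replicate 2 (adjusted p = 0.000677).

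Mmp3, the stromelysin, varied more between mice of a group. Its levels were 3.74, 2.78 and 2.11 in DMSO and 3.75, 3.73 and 4.59 in rapamycin. They were 4.83, 4.04 and 5.30 in BA+DMSO and 4.74, 5.11 and 4.43 in BA+rapamycin. All BA+DMSO arrays lay above all DMSO arrays, but the rapamycin arrays reached into the challenged range. Mmp3 rose by 1.85 ± 0.43 in the challenge, or 3.60-fold (adjusted p = 0.0148, limma). Its processed intensities before scaling overlapped, at 953 to 3728 units in DMSO and 1288 to 9708 in BA+DMSO. The call was lost when DMSO replicate 2, DMSO replicate 3 or BA+DMSO replicate 1 was left out, with differences of 1.46 to 2.28 and an adjusted p of at most 0.0599 over the 6 arrays left out in turn.

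Mmp2, the gelatinase that stromal and smooth muscle cells make, stood at 2.90, 2.31 and 2.52 in DMSO and at 3.00, 3.35 and 3.04 in rapamycin. It stood at 3.80, 2.79 and 3.88 in BA+DMSO and at 2.99, 2.92 and 3.23 in BA+rapamycin. Here the groups overlapped: BA+DMSO replicate 2 lay below DMSO replicate 1, while the other BA+DMSO arrays were the highest of all 12. The processed intensity of Mmp2 before scaling was 1267 to 2095 units in DMSO and 538 to 3626 in BA+DMSO. The rise of 0.91 ± 0.28, or 1.88-fold, passed the threshold narrowly (adjusted p = 0.0434, limma). It became 1.26 ± 0.20 without BA+DMSO replicate 2 (adjusted p = 0.00207), and the call was lost without any of the other 5 arrays compared, with an adjusted p of up to 0.162 and the lowest difference 0.72.

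Timp3, the matrix-bound inhibitor, differed little. It stood at 6.92, 6.94 and 6.81 in DMSO and at 7.10, 7.14 and 6.94 in rapamycin. It stood at 7.39, 7.16 and 6.97 in BA+DMSO and at 7.05, 7.17 and 7.33 in BA+rapamycin. The difference between BA+DMSO and DMSO was 0.28 ± 0.16 and did not pass the test (adjusted p = 0.236, limma), with a 95% interval of -0.07 to 0.64.

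Timp2, the inhibitor that also takes part in pro-Mmp2 activation, was read by a pair of probes that gave different pictures. On its brighter probe, at chr11:118163146-118163205 (mm9), the DMSO arrays stood at 8.21, 8.22 and 8.10 and the rapamycin arrays at 8.18, 8.33 and 8.20. The BA+DMSO arrays stood at 7.98, 8.26 and 8.16 and the BA+rapamycin arrays at 8.29, 7.96 and 8.02. All groups overlapped, and the difference was -0.04 ± 0.15 (adjusted p = 0.872, limma) with a 95% interval of -0.38 to 0.30. With quantile normalization it was -0.52 ± 0.17 (adjusted p = 0.0536), outside that interval. On the other probe, placed between chr11:118171964 and 118178741, the DMSO arrays stood at 4.39, 3.75 and 3.72 and the rapamycin arrays at 4.10, 4.48 and 4.76. The BA+DMSO arrays stood at 4.75, 4.24 and 5.23 and the BA+rapamycin arrays at 4.23, 4.14 and 4.32. There the arrays of a group spread more widely than on the brighter probe except in BA+rapamycin, and the difference between BA+DMSO and DMSO was 0.79 ± 0.28 (adjusted p = 0.0689, limma). Neither probe was called, and which of them follows the Timp2 transcript was not tested.

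Read against the slide and the date, the challenge in vehicle-treated mice was poorly determined. With slide as a fixed block, so that the rapamycin arrays alone tie the slides together, Timp1 differed by 3.58 ± 0.62 (adjusted p = 0.0900), Mmp14 by 1.32 ± 0.30 (adjusted p = 0.174), Mmp3 by 1.44 ± 0.81 and Mmp2 by 0.72 ± 0.54. None of the 6 genes and 0.054% of all tested probes were then called in limma. With the title date as a fixed block the differences were 4.15 (Timp1), 0.99 (Mmp14), 1.14 (Mmp2) and 0.78 (Mmp3). That fit ties challenged to unchallenged arrays only through BA+rapamycin replicate 3 and DMSO replicate 1. BA+DMSO enters it through replicate 1 alone, so it tests no group difference and no call is given. With the date as a random block all 4 were called, beside 19.1% of all tested probes.

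The other 4 enzymes lay at the detection limit. Mmp8, the collagenase of neutrophils, had processed intensities of 3.69 to 9.58 units over the 12 arrays and was well above background on none. Mmp12, the macrophage elastase, lay at 3.97 to 10.2 on its brighter probe and at 4.01 to 4.75 on the other, and neither was well above background on any array. Mmp9, the inducible gelatinase, was printed in 10 spots and lay at 3.43 to 23.6 units, with only rapamycin replicate 3 well above background. Mmp13, the other collagenase, lay at 3.64 to 28.1 units and was well above background on DMSO replicate 1 and rapamycin replicate 3 alone. The dimmest probe that counted as well above background had an intensity of 12.2 to 17.7 units, depending on the array.

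**Figure D2:**
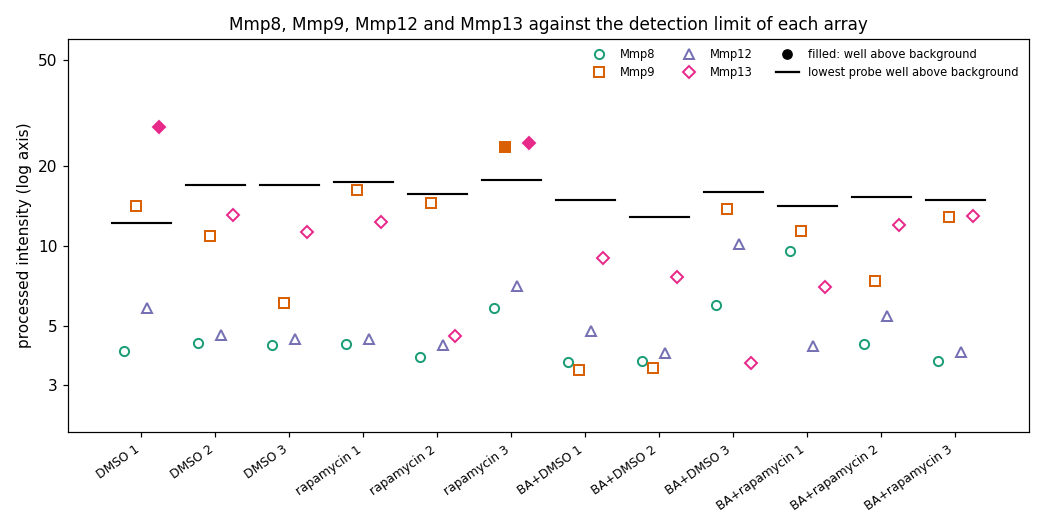
Processed intensity, on a log axis, of the brighter probe of Mmp8, Mmp9, Mmp12 and Mmp13 on each array, with filled symbols where at least a share of 0.5 of the spots was well above background. Horizontal bars give the dimmest probe of that array that was well above background, from 12.2 to 17.7 units. Filled symbols occur on DMSO 1 (Mmp13) and rapamycin 3 (Mmp9 and Mmp13) and on no challenged array.

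No challenged array had any of these 4 enzymes well above background, and the intensities of Mmp9 were 3.43 to 13.8 units on BA+DMSO arrays and 7.42 to 12.8 on BA+rapamycin arrays, against 6.12 to 14.2 in DMSO and 14.6 to 23.6 in rapamycin. Scaled to the 75th percentile, a signal at background rises on a dim array, and the order of Mmp9 turns: BA+rapamycin then held the highest values, from -3.33 to -3.07, and BA+DMSO lay at -5.27 to -4.16. Such values have no order here, and no fold change is given for these genes. Without the filter on dim probes the median difference of all 55675 probes moved to 0.43 in the challenge and 0.85 in the challenge under rapamycin.

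The next question was whether rapamycin changed these genes in the challenged aorta. None of the 6 tested genes was called between BA+rapamycin and BA+DMSO (limma), beside 0.281% of all tested probes. Timp1 came nearest, at 7.60 to 7.82 on the BA+rapamycin arrays and 5.95 to 7.47 on the BA+DMSO arrays. Its difference was 0.95 ± 0.34 (unadjusted p = 0.0173, adjusted p = 0.187, limma). Without BA+DMSO replicate 2 it was 0.53 ± 0.25 (adjusted p = 0.110). Timp1 was the only one of the 6 with an unadjusted p under 0.05, where 5585 of the 27801 tested probes had one in limma. In the pair of arrays that share a date, Timp1 lay 0.34 higher in BA+rapamycin replicate 1 than in BA+DMSO replicate 1. Mmp14 differed by 0.19 ± 0.16 (95% interval -0.15 to 0.54), Mmp3 by 0.04 ± 0.43 (-0.92 to 1.00), Timp2 by -0.05 ± 0.15 and Timp3 by 0.01 ± 0.16. On the other probe of Timp2 the difference was -0.51 ± 0.28 (adjusted p = 0.304, limma). The interval of Mmp3 is wide enough to hold changes of almost 1 log2 unit either way.

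The call for Mmp2 in the challenged aorta turned on a single mouse. Its mean was 3.05 in BA+rapamycin and 3.49 in BA+DMSO, a difference of -0.44 ± 0.28 (adjusted p = 0.356, limma). Without BA+DMSO replicate 2 the difference was -0.79 ± 0.20 (adjusted p = 0.0132, limma). Without replicate 1 or 3 it was -0.28 ± 0.31 or -0.25 ± 0.29 and was not called. Between BA+rapamycin replicate 1 and BA+DMSO replicate 1, which share a date, Mmp2 differed by -0.82. Leaving out replicate 2 also raised the share of all tested probes called from 0.281% to 39.9%, so Mmp2 was then 1 of 6 tested genes against a background of that size.

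Rapamycin alone, compared with DMSO in unchallenged mice, called none of the 6 genes in limma and 0.0036% of all tested probes. The largest difference was that of Mmp3, at 1.15 ± 0.43 (unadjusted p = 0.0231, adjusted p = 1.00), the only one of the 6 with an unadjusted p under 0.05. Its rapamycin values of 3.73 to 4.59 overlapped the DMSO values of 2.11 to 3.74. Over the whole array 1187 of the 27801 tested probes had an unadjusted p under 0.05 in limma here. Mmp2 differed by 0.55 ± 0.28, Mmp14 by -0.30 ± 0.16 and Timp3 by 0.17 ± 0.16. Timp1 differed by 0.45 ± 0.34 and Timp2 by 0.06 ± 0.15, with 0.49 ± 0.28 on the other probe of Timp2, which was not called either. Within the date that held 2 arrays of each group, Mmp3 differed by 1.71 ± 0.38 (adjusted p = 0.247), Timp1 by 0.79 ± 0.17 (adjusted p = 0.241) and Mmp2 by 0.78 ± 0.18 (adjusted p = 0.263), with none called.

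**Figure D3:**
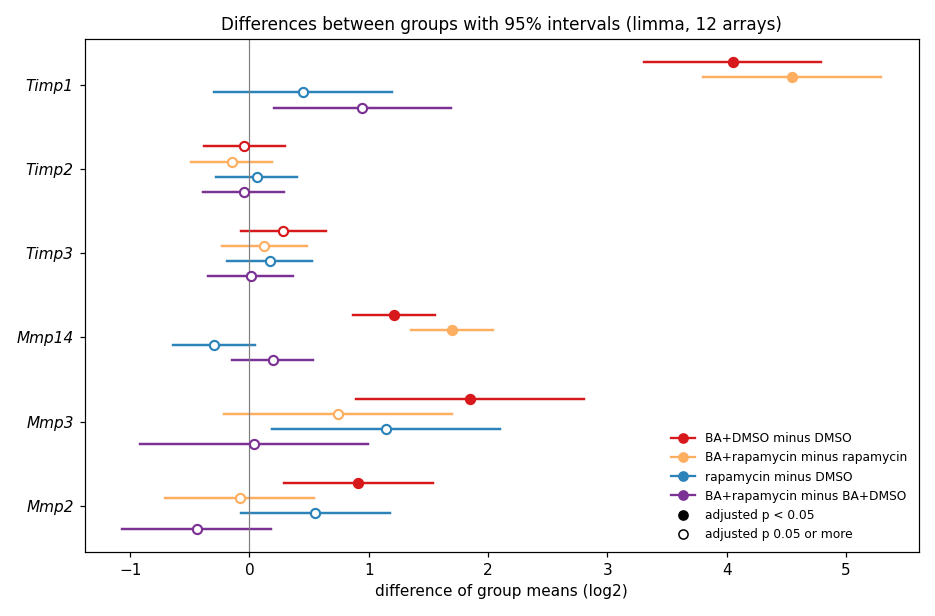
Differences of group means for the 6 tested genes on the log2 scale, with 95% intervals from limma (n = 3 arrays per group). Filled points had an adjusted p under 0.05. Timp1 and Mmp14 were called in both comparisons of challenged with unchallenged mice, at 4.05 and 4.55 and at 1.21 and 1.70, whereas Mmp3 and Mmp2 were called in vehicle-treated mice and not in rapamycin-treated mice.

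The challenge was also read in mice that received rapamycin, which shares no array with the comparison in vehicle-treated mice. Timp1 and Mmp14 were called and the other 4 were not, with 41.7% of all tested probes called and 18.9% upward. Timp1 rose by 4.55 ± 0.34, or 23.4-fold (adjusted p = 6.31e-05, limma), and Mmp14 by 1.70 ± 0.16, or 3.25-fold (adjusted p = 0.000108). The processed intensities of Mmp14 before scaling overlapped here, at 225 to 330 units in BA+rapamycin and 240 to 265 in rapamycin. With the title date as a fixed block the differences of Timp1 and Mmp14 were 3.70 and 1.56. That fit ties challenged to unchallenged arrays only through BA+rapamycin replicate 3 and DMSO replicate 1, so it gives no test of the groups. Both rises held on a single slide, against rapamycin replicates 2 and 3 only: Timp1 differed there by 4.39 ± 0.41 (adjusted p = 0.00445) and Mmp14 by 1.73 ± 0.24 (adjusted p = 0.00946), with 11.8% of all tested probes called. Mmp3 differed by 0.74 ± 0.43 (adjusted p = 0.185, limma), with -1.02 under the title date as a fixed block and up to 1.95 over the other settings. Of these settings only a random replicate block from the titles called Mmp3 (1.07, adjusted p = 0.0329, limma). Mmp2 differed by -0.08 ± 0.28, Timp3 by 0.12 ± 0.16 and Timp2 by -0.15 ± 0.15. The value of Timp2 depended on the scaling: with quantile normalization it was called lower, at -0.86 (adjusted p = 0.00387, limma), while the median of all tested probes moved from -0.08 to -0.18.

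Whether rapamycin changed the response to the challenge was asked of the interaction, the rapamycin difference under challenge minus that without it. No member was called in limma and neither was any of the 27801 tested probes (0%), although 1702 probes had an unadjusted p under 0.05. Mmp2 differed by -0.99 ± 0.40 (unadjusted p = 0.0305, adjusted p = 0.737) and Mmp14 by 0.49 ± 0.22 (unadjusted p = 0.0480, adjusted p = 0.737). Mmp3, which was called in vehicle-treated and not in rapamycin-treated mice, had an interaction of -1.11 ± 0.62 (95% interval -2.46 to 0.24), so its response was not shown to differ. Without BA+DMSO replicate 2 the interaction of Mmp2 was -1.35 ± 0.26 (adjusted p = 0.0323), with 11% of all tested probes called. On the other probe of Timp2 the interaction was -1.001 ± 0.39 (unadjusted p = 0.0276, adjusted p = 0.737).

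The sequences before the start of the 3 genes with the clearest rises are given because MMP and TIMP promoters are known for sites of AP-1 (Fos and Jun) and of ETS factors. RefSeq windows on GRCm38.p6 were found for 8 of the 10 genes, all except Mmp2 and Mmp9, and the 250 bases before each start were searched on both strands. Capitals mark TGANTCA (AP-1), AGGAAG (ETS), TATAAA (the TATA box) or GGGCGG (the GC box), or the reverse complement of any of them. The windows printed here are all on the + strand.

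Timp1, chrX:20869916-20870165: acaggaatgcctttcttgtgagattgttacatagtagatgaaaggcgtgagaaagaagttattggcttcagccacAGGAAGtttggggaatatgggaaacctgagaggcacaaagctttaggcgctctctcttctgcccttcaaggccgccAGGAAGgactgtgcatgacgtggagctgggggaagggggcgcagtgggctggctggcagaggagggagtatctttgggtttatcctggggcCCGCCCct

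Mmp14, chr14:54431348-54431597: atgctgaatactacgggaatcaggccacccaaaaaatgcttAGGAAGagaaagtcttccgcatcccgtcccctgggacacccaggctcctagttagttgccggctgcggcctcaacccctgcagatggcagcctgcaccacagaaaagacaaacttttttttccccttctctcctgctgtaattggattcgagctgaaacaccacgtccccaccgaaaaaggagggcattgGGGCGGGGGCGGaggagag

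Mmp3, chr9:7445572-7445821: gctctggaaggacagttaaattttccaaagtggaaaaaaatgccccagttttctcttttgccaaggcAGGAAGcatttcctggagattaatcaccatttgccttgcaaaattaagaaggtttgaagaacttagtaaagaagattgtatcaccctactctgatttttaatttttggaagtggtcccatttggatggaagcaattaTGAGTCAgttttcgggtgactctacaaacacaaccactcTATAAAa

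The windows of these 3 genes differ in their letters. Timp1 held AGGAAG at 175 to 170 and at 99 to 94 bases before the start and a GC box at 8 to 3. Mmp14 held AGGAAG at 209 to 204 and adjoining GC boxes at 19 to 14 and 13 to 8. Mmp3 held TGAGTCA at 46 to 40, AGGAAG at 183 to 178 and TATAAA at 7 to 2. The 8 genes have 9 windows, since Mmp12 has a pair of starts. Of these 9 windows 3 held TGANTCA (Mmp3, Mmp12 and Mmp13), beside 6.75% of all 32851 windows of this length. AGGAAG was in 7 of the 9, beside 29.5%, GGGCGG in 4, beside 32.7%, and TATAAA in 2, beside 12.4%. A match is a stretch of letters only, and no binding was measured.

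A list of transcription factors known to act on MMP genes held AP-1, ETS and NF-kB factors, with Cebpb and Runx2 added, and sites of NF-kB, C/EBP and RUNX factors were not searched for. Of its 12 tested genes 1 was higher and 5 were lower in BA+DMSO than in DMSO, with a median of -0.52, beside 20.5% of all tested probes called. Fos fell by 3.39 and Fosb by 2.41, the immediate early subunits of AP-1, and Jun fell by 1.90 (adjusted p = 0.00451, 0.00335 and 0.0144, limma). Etv4, an ETS factor of the PEA3 group, rose by 2.06 (adjusted p = 0.000607). In rapamycin-treated mice 2 of the 12 were higher and 4 were lower, beside 41.7% of all tested probes, and Jun was not called there (0.47, adjusted p = 0.407).

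Of the genes for cytokines that induce MMPs and Timp1, 4 were well above background on all 12 arrays. Of these 4, 2 rose in the challenge in vehicle-treated mice and 3 in rapamycin-treated mice, and none fell, beside 20.5% and 41.7% of all tested probes called in either direction. Il6 and Lif, cytokines of the IL-6 family, were well above background on none of the unchallenged arrays, on 2 of 3 BA+DMSO arrays and on all 3 BA+rapamycin arrays. They entered the test only through the group where they were high, so no difference is given for them. Pdgfb, a growth factor for smooth muscle cells, rose by 1.00 and Tgfb1, an inducer of matrix genes and of Timp1, by 0.81 in vehicle-treated mice (adjusted p = 0.0193 and 0.0328, limma). Il1a, Il17a, Osm and Csf3 were well above background on no array, Tnf on 1 BA+DMSO array and Il1b on 2 arrays of each challenged group.

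The remaining MMP and TIMP family held few readable genes. Of 18 on the array, 7 were tested, and in vehicle-treated mice the challenge raised 1 and lowered 1, with a median of -0.06, beside 20.5% of all tested probes called. Mmp19 rose by 2.33 ± 0.49 (adjusted p = 0.00941, limma). Timp4, an inhibitor found mainly in the heart, fell by 2.39 ± 0.61 (adjusted p = 0.0210), opposite in direction to Timp1. In rapamycin-treated mice Mmp19 rose by 2.31 and Timp4 fell by 2.51, and 2 more fell: Mmp17, by 0.98, and Mmp23, by 0.75. These 4 of 7 stand beside 41.7% of all tested probes. Reck, a membrane-anchored MMP inhibitor, was called in neither.

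Of 12 tested genes for the activation and clearance of MMPs, 4 were higher and 1 was lower in BA+DMSO than in DMSO, beside 20.5% of all tested probes called in either direction. Lcn2, the lipocalin that protects Mmp9 from degradation, rose by 2.59 ± 0.29 (adjusted p = 0.000480, limma), Plau, the urokinase that generates plasmin, by 2.14 ± 0.35 (adjusted p = 0.00251) and Cd44, a docking receptor for Mmp9 and Mmp14, by 1.33 ± 0.22 (adjusted p = 0.00304). The plasminogen activator inhibitor Serpine2 fell by 1.62. Of 8 other elastases and collagenases 2 rose, Ctss (cathepsin S) by 2.30 and Elane by 0.89, and none fell, a share close to that of all tested probes.

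Of 13 tested matrix substrates, 6 rose and 1 fell in the challenge, beside 20.5% of all tested probes called, 9.65% upward. Tnc (tenascin C) rose by 2.08 ± 0.30 (adjusted p = 0.00154, limma), the laminin chain Lamb1 by 1.25 and the collagen chain Col1a1 by 0.99 (adjusted p = 0.0328 and 0.0243), while the proteoglycan gene Vcan fell by 0.86 (adjusted p = 0.0385). In rapamycin-treated mice 5 substrates rose and 1 fell, with Tnc at 3.00 and Col1a1 at 1.57. The same comparison called 3 higher and 2 lower of the activation list, including Pcsk6, a proprotein convertase, which fell by 1.89. These counts, 5 of 12 and 6 of 13, were close to the 41.7% of all tested probes called there. No gene of these lists was called in limma between BA+rapamycin and BA+DMSO, between rapamycin and DMSO, or in the interaction with all 12 arrays. Without BA+DMSO replicate 2, 3 of the 7 remaining family genes, 4 of 12 activation genes and 3 of 8 other elastases were called between BA+rapamycin and BA+DMSO. So were 4 of 13 substrates and 4 of 12 regulators, beside the 39.9% of all tested probes. Cytokines are left out of these counts, since the 6 tested include Il6 and Lif. In the interaction 3 activation genes and 1 substrate were then called lower and 1 regulator higher, beside 11% of all tested probes. In the challenge, where 27.2% of all tested probes were then called, leaving out that array gave 6 higher and 0 lower of the activation genes, 8 and 0 of the substrates, 3 and 0 of the other elastases and 2 and 6 of the regulators. Leaving out BA+DMSO replicate 3 instead gave 38% of all tested probes called in the challenge, and replicate 1 gave 11.2%. The lists were not counted without these arrays.

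Macrophage markers moved with the challenge. Of 11 macrophage markers all were tested and 10 rose, with a median difference of 2.23, beside 9.65% of all tested probes called upward. Their summed level, in multiples of each array's 75th percentile, was 113 to 142 in DMSO and 123 to 147 in rapamycin. On the BA+DMSO arrays it was 196 to 497, and on the BA+rapamycin arrays 393 to 514. Aif1 rose by 2.31 and Fcgr1 by 2.23 (adjusted p = 0.000126 and 0.000591, limma). In rapamycin-treated mice 9 of the 11 rose, beside 18.9% of all tested probes. The part of macrophages in the rises of Timp1 and Mmp14 was not tested, and Mmp12, the elastase these cells are known for, stayed below detection.

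Of 10 neutrophil markers 5 were tested, and Ly6g alone was called (1.87, adjusted p = 0.0268), where 20.5% of all tested probes were called. Their summed level was 206 to 257 in DMSO and 202 to 242 in rapamycin. It spanned 154 to 601 on the BA+DMSO arrays and 502 to 656 on the BA+rapamycin arrays. Sums weigh bright genes most and can part from the median over genes: BA+DMSO replicate 3 held the lowest sum, 154, and the highest median, 2.30. Ngp and Cxcr2 were well above background on no array, and Mpo, Ltf and Retnlg on 1 BA+DMSO array each, beside Mmp8 on none. Of 5 mesothelium markers 4 rose in vehicle-treated mice, beside 9.65% of all tested probes called upward, with a summed level of 0.548 to 3.34 in DMSO and 2.43 to 3.99 in rapamycin, beside 6.67 to 14.5 on the BA+DMSO arrays and 1.49 to 11.6 on the BA+rapamycin arrays. The median difference of the 5 was 2.83, and without BA+DMSO replicate 2 it was 2.57, with none of them called. In rapamycin-treated mice the median was 0.10 and none was called. The part of these cells in the members' differences was not tested. Markers of the aortic wall itself were present on every array. The summed level of the 8 smooth muscle genes was 2929 to 3149 in DMSO and 2663 to 3113 in rapamycin, against 2466 to 4851 on the BA+DMSO arrays and 3489 to 4528 on the BA+rapamycin arrays. The median over the 8 genes went the other way in BA+rapamycin, at -0.47 to -0.36 from the DMSO mean. Of the 8, Synpo2 and Lmod1 fell in the challenge, beside 10.8% of all tested probes called downward. Without BA+DMSO replicate 2, 5 of the 8 fell, with 27.2% of all tested probes called.

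**Figure D4:**
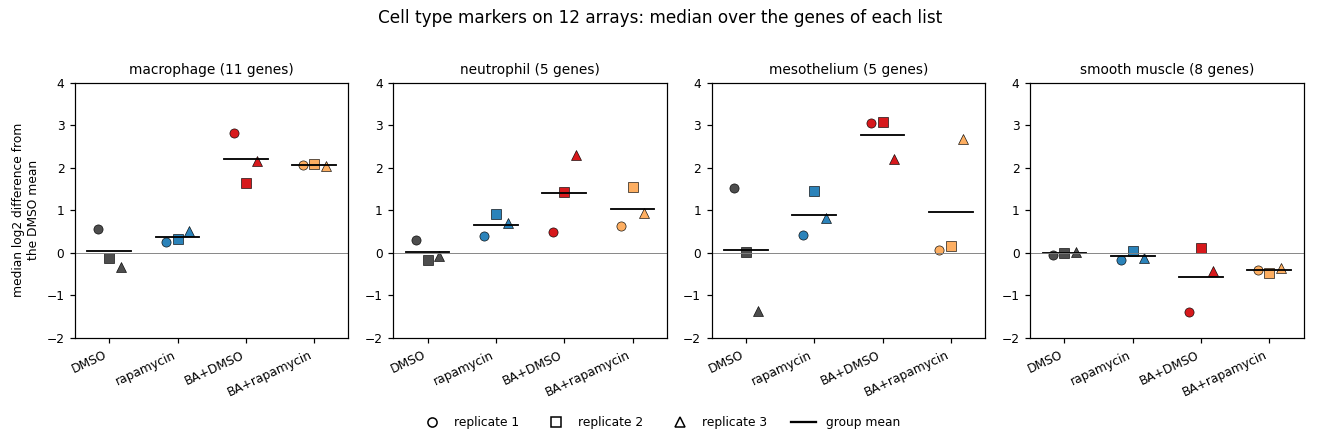
Median log2 difference from the DMSO mean over the tested markers of macrophages (11 genes), neutrophils (5), mesothelium (5) and smooth muscle (8) on each array, with bars at the group mean (n = 3). Macrophage medians were 1.64 to 2.82 on the challenged arrays and -0.33 to 0.56 on the others, and mesothelium medians reached 2.67 on 1 BA+rapamycin array and 0.06 and 0.15 on the others.

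Among the other cell types, no fibroblast marker of 6 and no adipocyte marker of 5 was called in vehicle-treated mice. Of 8 endothelial markers 3 rose, of 4 T and B cell markers 2 rose, and of 4 striated muscle markers 1 fell, beside 20.5% of all tested probes called. In rapamycin-treated mice 1 fibroblast, 1 neutrophil and 2 T and B cell markers rose, 2 endothelial markers rose and 2 fell, 1 smooth muscle marker rose and 2 fell, and 2 striated muscle markers fell, beside 41.7% of all tested probes. Markers were not called between BA+rapamycin and BA+DMSO with all 12 arrays. With BA+DMSO replicate 2 left out, where Mmp2 was called, 3 of 8 smooth muscle, 2 of 6 fibroblast, 1 of 5 neutrophil and 1 of 8 endothelial markers were higher in BA+rapamycin, 1 of 11 macrophage markers was higher and 2 were lower, and the mesothelium median was -1.73 with none called, beside 39.9% of all tested probes. In the interaction 2 of 11 macrophage markers were then lower and 2 of 8 smooth muscle markers and 1 of 5 neutrophil markers higher, beside 11% of all tested probes.

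The members did not form a single pattern over the 12 arrays. Timp1 and Mmp14 correlated at 0.94 (Pearson), Timp1 and Mmp3 at 0.79, Mmp3 and Mmp2 at 0.72, and Mmp14 and Mmp2 at 0.33, while Timp2 correlated with Timp1 at -0.46. These arrays share the challenge, the slide and the brightness of the arrays, so that the values are descriptive only. The named genes whose pattern was most like Timp1 were Cd52 (r = 0.99), a leukocyte surface protein, and Pilra (r = 0.99), a receptor of myeloid cells. For Mmp14 they were Slc2a6 (r = 0.99), a sugar transporter, and Ttc7 (r = 0.99). For Mmp3 they were Cfb (r = 0.95), complement factor B, Serpina3n (r = 0.95), a serine protease inhibitor, and Baiap2 (r = 0.95). For Mmp2 they were Lgals9 (r = 0.95), a galectin, S1pr2 (r = 0.93), a receptor for sphingosine phosphate, and Cbara1 (r = 0.93).

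The tested probes lie, on mm9 as the array files give it, at chrX:20451802-20451861 for Timp1, chr14:55058775-55058834 for Mmp14, chr9:7455751-7455810 for Mmp3, chr8:95376840-95376899 for Mmp2 and chr10:85811696-85811755 for Timp3. The Mmp8, Mmp12 and Mmp13 probes lie on chr9 at 7568238, 7352935 and 7282762, in the same cluster as Mmp3, and that of Mmp9 on chr2 at 164780620. Which exon or untranslated part each probe matches was not determined, because no annotation of this build was used here.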

How the data were processed

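RNA of 12 mouse aortas (4 groups of 3, by their treatment labels) was labelled with Cy3 and hybridised by the authors to 1-colour Agilent mouse arrays. Replicates were numbered in order of deposition, and each group held 3 mice per the series design. Per the file headers, images were read with Agilent Feature Extraction 10.7.1.1 (the submitters' processing notes give 9.5.1.1) and probes were placed on mm9. The deposited processed signal is a background-subtracted, detrended intensity, not normalized between arrays, and the mean and local background of each spot were deposited as intensity as well. Flags of 0 or 1 per spot (other values) were also deposited. The deposited matrix matched the processed intensity after quantile normalization, which the sources do not state. For the arrays the study names no test and gives a criterion that joins a p threshold with a minimum fold change, which was not used here.

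The processed intensity was put on the log2 scale, outlier spots were removed, spots of a probe were averaged, and each array's 75th percentile was subtracted. Of 55681 probes 6 lacked a value on some array. Testing required 1 group or more in which every array had a share of 0.5 or more of the probe's spots well above background, and this left 27801. No spot was saturated. All 12 arrays entered 1 limma 3.58.1 model (R 4.3.3) with a mean per group, 8 residual and 3.02 prior degrees of freedom, two-sided tests and Benjamini-Hochberg adjustment within each of 5 contrasts. The number of arrays limits the precision. The script was tested on simulated data.

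A gene stood by its tested probe with the highest mean. The members and all lists (6 of related genes and 9 of cell markers) were chosen with earlier results of these data known. Up to 4 called genes of each list, by size, and the 3 genes nearest each called member by Pearson r over the 12 arrays could be named, and genes outside this rule (those listed as undetected or not called) were chosen after their values were seen. Gene names are those of the array design. Promoter windows came from RefSeq (GRCm38.p6). Alternatives covered scaling, background correction, the deposited matrix, the filter, slide, the date in the titles, replicate block, brightness, array weights, probe choice, the arrays fitted and each array left out.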

Additional observations from a re-analysis of the deposited data

How the results depend on the processing

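For the challenge in vehicle-treated mice Timp1 kept its call in 20 of 21 alternatives (not with slide as a fixed block), Mmp14 in 19 (nor with the title date as a fixed block), Mmp3 in 15 and Mmp2 in 10. The title date as a fixed block rests on 1 array of the challenged group in either treatment, so its calls say nothing of the groups of 3. For the challenge under rapamycin Timp1 and Mmp14 kept their calls in 22 of 22 alternatives, that setting included. Mmp3 there ranged from -1.02 with the title date as a fixed block to 1.95 with brightness as a covariate (adjusted p = 0.111), which lowered the share of all tested probes called from 41.7% to 6.42%. Timp2 was called lower in the challenge under rapamycin in 3 alternatives, with quantile normalization (-0.86), the deposited matrix (-0.84) and normexp (-0.58), and Timp3 was called in the challenge with array weights (0.45), where 48.3% of all tested probes were called. Over all members and contrasts, 606 of 678 recomputed values kept their direction and side of the threshold, 20 lost a call, 8 gained one and 44 changed sign. The cause of these changes was not tested. The number of members called in the challenge was 4, beside 20.5% of all tested probes. It was 0 with slide as a fixed block (0.054%) and 2 with only the groups compared (4.47%). With 1 array left out it was 2 to 4 (7.38% to 38%), and 2 without DMSO replicate 2 or 3 or BA+DMSO replicate 1. For the challenge under rapamycin it was 2, also with 1 array left out (23.5% to 35%). It became 4 with no filter on dim probes, with Mmp8 and Mmp12 added (53.3% of 55675 probes). In the challenge that setting kept 4, with Mmp12 in (1.13, adjusted p = 0.0373) and Mmp2 out (adjusted p = 0.0945), beside 7.65%. For rapamycin under challenge the number was 0, and 0 to 1 with 1 array left out (0.115% to 39.9%). For the interaction it was 0, 1 (Mmp2) with array weights (4.91%), and 0 to 1 with 1 array left out (0% to 11%). For rapamycin alone it was 0 throughout. Array weights were fitted gene by gene because the joint fit did not converge. They raised the calls over all tested probes under challenge from 78 to 7526. The gene-by-gene fit, the title date as a block and the lists without BA+DMSO replicate 2 were chosen after seeing the data. Scalings moved the median of all tested probes to between -0.11 and 0.09 in the challenge and between -0.18 and 0.14 in the challenge under rapamycin. The detection limit kept Mmp8, Mmp9, Mmp12 and Mmp13 from being tested.

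Some titles share a date and number that the labels do not explain. With these as a random replicate block (consensus correlation -0.58) the challenge called 3 members, without Mmp2 (adjusted p = 0.0568, limma), beside 21.4% of all tested probes. The challenge under rapamycin called 3 of 6, with Mmp3 added (1.07, adjusted p = 0.0329, limma), close to the 47.6% of all tested probes. Mmp2 in that contrast was then 0.0968.

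Values that changed sign were not called in the report. With quantile normalization they were -0.22 (Timp3, rapamycin under challenge), -0.0392 (Timp2, rapamycin alone), 0.0889 (Mmp2, challenge under rapamycin) and -0.26 (Timp3, same contrast), and with the deposited matrix -0.21, -0.0391, 0.0879 and -0.24. With the percentile over probes detected on all arrays, Timp2 was 0.0241 in the challenge, 0.0937 in rapamycin under challenge, 0.0353 in the challenge under rapamycin and 0.0111 in the interaction, and Mmp2 was 0.10 in the challenge under rapamycin. With normexp, rapamycin under challenge gave Mmp3 -0.14 and Timp3 -0.13, and the challenge under rapamycin gave Timp3 -0.30. With slide as a fixed block Timp2 was -0.00101 under rapamycin alone. With brightness as a covariate Timp3 was -0.0470 in rapamycin under challenge and -0.0493 in the challenge under rapamycin, where Mmp2 was 0.81. Array weights gave -0.19 (Mmp3), 0.0741 (Timp2) and -0.13 (Timp3) for rapamycin under challenge and -0.0716 (Timp1) and 0.0183 (Timp2) for the interaction. The mean over probes put Timp2 at 0.37 in the challenge. With 1 array left out, Mmp2 ranged from -0.18 to 0.0286 in the challenge under rapamycin and Timp2 from -0.11 to 0.0346 in the challenge. For rapamycin under challenge the ranges were -0.30 to 0.33 (Mmp3), -0.15 to 0.0162 (Timp2) and -0.0939 to 0.12 (Timp3). With the title date as a random block, rapamycin under challenge gave Mmp3 -0.13, Timp2 0.0275 and Timp3 -0.0733. As a fixed block it gave -0.0828, 0.30 and -0.35, and the interaction gave Timp1 -0.45 and Timp2 0.19.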
